A study of Mus musculus with 18 samples.

Results

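Microglia that carried the R47H form of TREM2 and had been treated with the Akt kinase inhibitor MK-2206 were compared with wild-type microglia that had no inhibitor, after both had received tau fibrils. The comparison uses 6 of the 18 libraries of a bulk RNA sequencing study of primary mouse microglia, 3 in each group, chosen by their labels alone. The wild-type group is labelled mTrem2 +/+ and the other hTrem2 R47H/+, and the labels do not say how the R47H allele was made. Both groups came from pups taken 0 to 3 days after birth, were grown for 10 days in mixed culture before the microglia were isolated, and were given fibrils of 0N4R tau (1 ug per ml) after a pre-treatment of 6 h. The pre-treatment held 1 uM MK-2206 in the R47H group and, per the protocol, 0.01% DMSO as vehicle in cells without the inhibitor. Genotype and inhibitor therefore differ together between the 2 groups and cannot be told apart in this comparison. R47H cells with tau and without MK-2206 (3 libraries) are given beside it, and the same groups without tau (wild type and inhibited R47H, 3 libraries each) show whether the difference depended on tau.

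TREM2 is a surface receptor of microglia that binds lipids and lipoproteins and signals through the adaptor DAP12 to the kinase Syk and to PI3K, which activates Akt. Akt keeps FOXO transcription factors out of the nucleus and feeds mTORC1, which drives the synthesis of sterols, nucleotides and proteins. R47H is a variant in the ligand-binding domain of TREM2 that is associated with Alzheimer's disease, and tau fibrils are taken up by microglia and provoke interferon and NF-kB responses. MK-2206 binds Akt at an allosteric site.

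Inhibited R47H cells differed broadly from wild-type cells under tau. Interferon-induced GTPases and antiviral genes, Nos2, Il1b and several chemokines were higher. Trem2, many genes of cholesterol synthesis, several antioxidant genes, the matrix genes Fn1 and Mmp9 and the activation marker Chil3 were lower. Of 13267 genes tested, 531 were called higher (4%) and 407 lower (3.07%), 938 in all (7.07%), by edgeR's quasi-likelihood test at a Benjamini-Hochberg adjusted p under 0.05. Of these, 221 were at least 2-fold higher (1.67% of the genes tested) and 129 at least 2-fold lower (0.972%). The model shares its spread over all 18 libraries, and 2 of these, in neither group compared, had long genes low (wild type without tau replicate 3 and R47H with tau replicate 2). A fit without both called 3699 genes (27.4%; 1913 or 14.2% higher and 1786 or 13.2% lower), all 938 among them, so list counts against wild type are given from both fits. Those list counts are to be read against these shares of all genes tested. Leaving out 1 of the 6 libraries at a time from the full model gave 495, 556 and 687 calls without wild-type replicates 1, 2 and 3, and 601, 522 and 564 without inhibited replicates 1, 2 and 3. The 6 libraries held 16587756 to 20686299 counts each. The labels do not tell whether replicates came from different cultures or pups, so each p-value reflects the spread among these libraries alone, which can be technical.

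**Figure D1:**
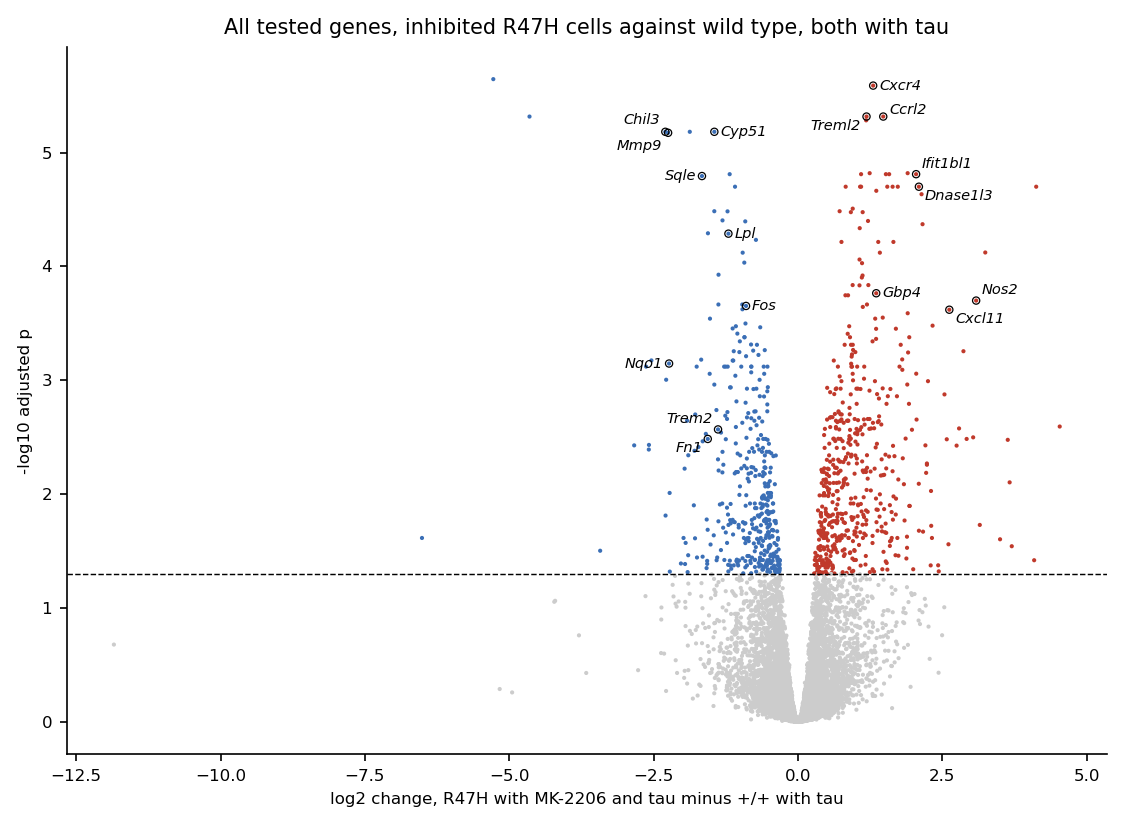
Each point is 1 of the 13267 tested genes, with the log2 change of inhibited R47H cells against wild-type cells, both with tau, on the x axis and -log10 of the adjusted p on the y axis. Red and blue points above the dashed line at 0.05 were called higher (531) and lower (407); circled points carry the names of examples, among them Cxcr4, Treml2 and Ccrl2 high on the right and Chil3, Mmp9 and Cyp51 high on the left.

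Trem2 itself (ENSMUSG00000023992, chromosome 17, 48346401 to 48354147, plus strand, GRCm38) was lower in the R47H cells. The wild-type libraries with tau held 469, 481 and 375 CPM (counts scaled to a common library size, with TMM factors), and the inhibited R47H libraries 183, 154 and 169.9 CPM. The groups did not overlap, which held for 18.8% of all genes tested in the lower and 19.2% in the higher direction and was a condition for genes named by size of change. Trem2 fell by 1.39 on the log2 scale (SE 0.251, adjusted p = 0.0027, from the edgeR fit described above, as is every adjusted p below). R47H cells without the inhibitor held 128, 243 and 155 CPM, and inhibited and uninhibited R47H cells differed by -0.05 (95% interval -0.58 to 0.47, adjusted p = 0.938). The counts are of mouse genes, and whether reads of the hTrem2 allele are counted among them is not given in the sources used here.

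Treml2, a neighbour of Trem2 on chromosome 17 that codes for a related receptor, went the other way. It held 41.7, 41.5 and 38.9 CPM in wild type and 99.1, 95.3 and 83.4 CPM in inhibited R47H cells, a log2 change of 1.19 (SE 0.0957, adjusted p = 4.83e-06). All 3 inhibited libraries lay above all 3 wild-type libraries, and uninhibited R47H cells stood at the same height (94.7, 99.1 and 102 CPM). Of 14 tested neighbours of Trem2, Treml2 rose and Bysl, a ribosome assembly gene, fell (-0.64, adjusted p = 0.00303), and 2 rose and 3 fell without the length-shifted libraries. As background for this list and the next, 4% of all genes tested rose and 3.07% fell (14.2% and 13.2% without the length-shifted libraries). Of 34 tested genes for Trem2's signalling partners, 3 rose and 1 fell, and 11 rose and 3 fell without the 2 length-shifted libraries. Cd33, an inhibitory receptor that counters TREM2, was among those that rose, from 27.3, 23.8 and 28.1 CPM to 37.7, 48.2 and 51.4 CPM (0.79, adjusted p = 0.00747). It was also higher than in R47H cells without MK-2206 (26.3, 17.9 and 25.5 CPM, log2 change 0.98, adjusted p = 0.00458).

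Many interferon-stimulated genes were higher in inhibited R47H cells. Interferons act through JAK kinases and STAT transcription factors on promoters that hold a response element with repeated GAAA motifs. Of 70 genes on the list of type I interferon responses that were tested, 31 rose and 0 fell. Without the length-shifted libraries 67 rose and 0 fell, with a median log2 change of 0.43, against -0.01 over all genes tested. Of 19 guanylate-binding proteins and immunity-related GTPases, which attack the vacuoles of intracellular pathogens, 14 rose and 0 fell (19 and 0 without the shifted libraries), with a median of 0.86. The medians of the same lists in R47H cells without MK-2206 against the same wild-type libraries were 0.49 and 0.83, and 0 genes of either list were called between inhibited and uninhibited R47H cells (3 higher and 4 lower, and 0 higher and 1 lower, without the shifted libraries).

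Promoters of some leading genes of this group are shown, all of them chosen with a match to the response element. They are taken from RefSeq (GRCm38.p6), as stretches of 80 bases on the gene's own strand, 5′ to 3′, with every match to GAAANNGAA in either orientation in capitals. Gbp3 and Ifit1bl1 have 2 promoters each, of which 1 is shown. Stretches are given for Gbp3 (chr3:142559964-142560043, plus strand), Gbp2b (chr3:142594675-142594754, plus strand), Tgtp2 (chr11:49064239-49064318, minus strand), Ifi205 (chr1:174031846-174031925, minus strand), Rsad2 (chr12:26456528-26456607, minus strand), Ifit1bl1 (chr19:34602028-34602107, minus strand) and Cxcl10 (chr5:92349059-92349138, minus strand).
Gbp3: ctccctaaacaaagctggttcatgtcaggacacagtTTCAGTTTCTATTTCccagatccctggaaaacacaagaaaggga
Gbp2b: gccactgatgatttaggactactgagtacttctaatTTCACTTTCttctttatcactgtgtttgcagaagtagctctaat
Tgtp2: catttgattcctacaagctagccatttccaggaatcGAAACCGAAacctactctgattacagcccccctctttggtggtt
Ifi205: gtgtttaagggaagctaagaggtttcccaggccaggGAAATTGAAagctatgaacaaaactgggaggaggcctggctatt
Rsad2: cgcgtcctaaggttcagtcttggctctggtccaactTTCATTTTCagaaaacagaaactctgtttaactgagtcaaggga
Ifit1bl1: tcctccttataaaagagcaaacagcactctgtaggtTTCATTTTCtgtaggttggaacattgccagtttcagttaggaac
Cxcl10: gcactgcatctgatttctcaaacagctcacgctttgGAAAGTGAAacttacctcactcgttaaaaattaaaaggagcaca

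RefSeq promoters, which run from 250 bases before a start to 50 after it, were found for 54 of the 70 interferon-stimulated genes and for 11 of the 19 GTPase genes. GAAANNGAA was present in 32 of 65 promoters of the first list, where a gene can have several starts (49.2%) and in 10 of 12 of the second (83.3%), against 943 of 12514 promoters of all genes tested (7.54%). A match of these letters describes the promoter and is not a measured site.

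Ifit1bl1, a member of the family of interferon-induced proteins that bind viral RNA, was 1 of the 20 genes named for the size of their rise. It held 212, 277 and 265 CPM in the wild-type libraries and 995, 1116 and 998 CPM in the inhibited R47H libraries, a log2 change of 2.04 (SE 0.196, adjusted p = 1.55e-05). The uninhibited R47H libraries lay in the same range (1092, 966 and 996 CPM). Rsad2, which codes for the antiviral enzyme viperin, rose from 1224, 1385 and 1329.6 CPM to 2807, 3063 and 2702 CPM (1.12, SE 0.147, adjusted p = 0.000227). Every inhibited library held more than every wild-type library for both genes, which was a condition for genes named by size of change, such as Ifit1bl1. Its neighbour Cmpk2, a mitochondrial nucleotide kinase, rose by 0.93 (adjusted p = 0.00062), the interferon regulatory factor Irf7 by 0.76 (adjusted p = 0.002) and Usp18, which removes ISG15 from proteins and dampens the receptor, by 0.90 (adjusted p = 0.00199). Mx2, Oas1b and Ifi205, which act against viruses or sense nucleic acids, rose by 0.75, 0.63 and 1.24.

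Among the GTPases, Gbp4 held 60.8, 69.6 and 73.5 CPM in wild type and 161, 187 and 173 CPM in inhibited R47H cells (1.35, SE 0.172, adjusted p = 0.000172). Gbp3 rose by 1.04, Gbp10 by 1.80, Gbp11 by 1.76, Gbp2b by 2.54 and Tgtp2 by 1.12 (adjusted p between 0.00012 and 0.00133). Gbp2b was scarce, with 38 counts over the 3 wild-type libraries and 201 over the 3 inhibited libraries. Members of these families have close copies (Tgtp1 and Tgtp2, Gbp10 and Gbp6), between which shared reads could be split. Ifnb1, the gene of interferon beta, was higher too, at 1.05, 1.27 and 0.852 CPM against 6.6, 4.26 and 4.34 CPM (2.25, SE 0.357, adjusted p = 0.00102). It rests on 62 and 269 counts over the 3 libraries of each group, and the groups did not overlap. The Ifnb1 promoter, known as a textbook enhancer bound by NF-kB and interferon regulatory factors, is shown for its match to the NF-kB motif GGANTTTCC in capitals (RefSeq, GRCm38.p6, chr4:88522866-88522945, minus strand).
Ifnb1: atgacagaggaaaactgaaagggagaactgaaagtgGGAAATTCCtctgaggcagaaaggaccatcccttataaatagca

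Socs1, a feedback inhibitor of JAK kinases, rose from 18.8, 19.9 and 18.1 CPM to 43.9, 47.4 and 40.2 CPM (1.21, SE 0.133, adjusted p = 3.99e-05). Of 30 tested genes of JAK-STAT and SOCS signalling, 6 rose and 0 fell (13 and 1 without the shifted libraries). Of 22 MHC class I presentation genes, 5 rose and 1 fell (16 and 2), with H2-Q6 up by 1.35 (adjusted p = 0.000433), although H2-Q7 is nearly the same in sequence and the 2 may share reads. The gene that fell was Calr, an endoplasmic reticulum chaperone, at 736, 734 and 773 CPM against 517, 486 and 491 CPM (-0.59, adjusted p = 0.000877). Of 11 MHC class II presentation genes, 2 rose and 0 fell (5 and 0). These were H2-Oa, a regulator of peptide loading (1.90, adjusted p = 1.52e-05), and the invariant chain Cd74 (1.12, adjusted p = 0.0062).

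**Figure D2:**
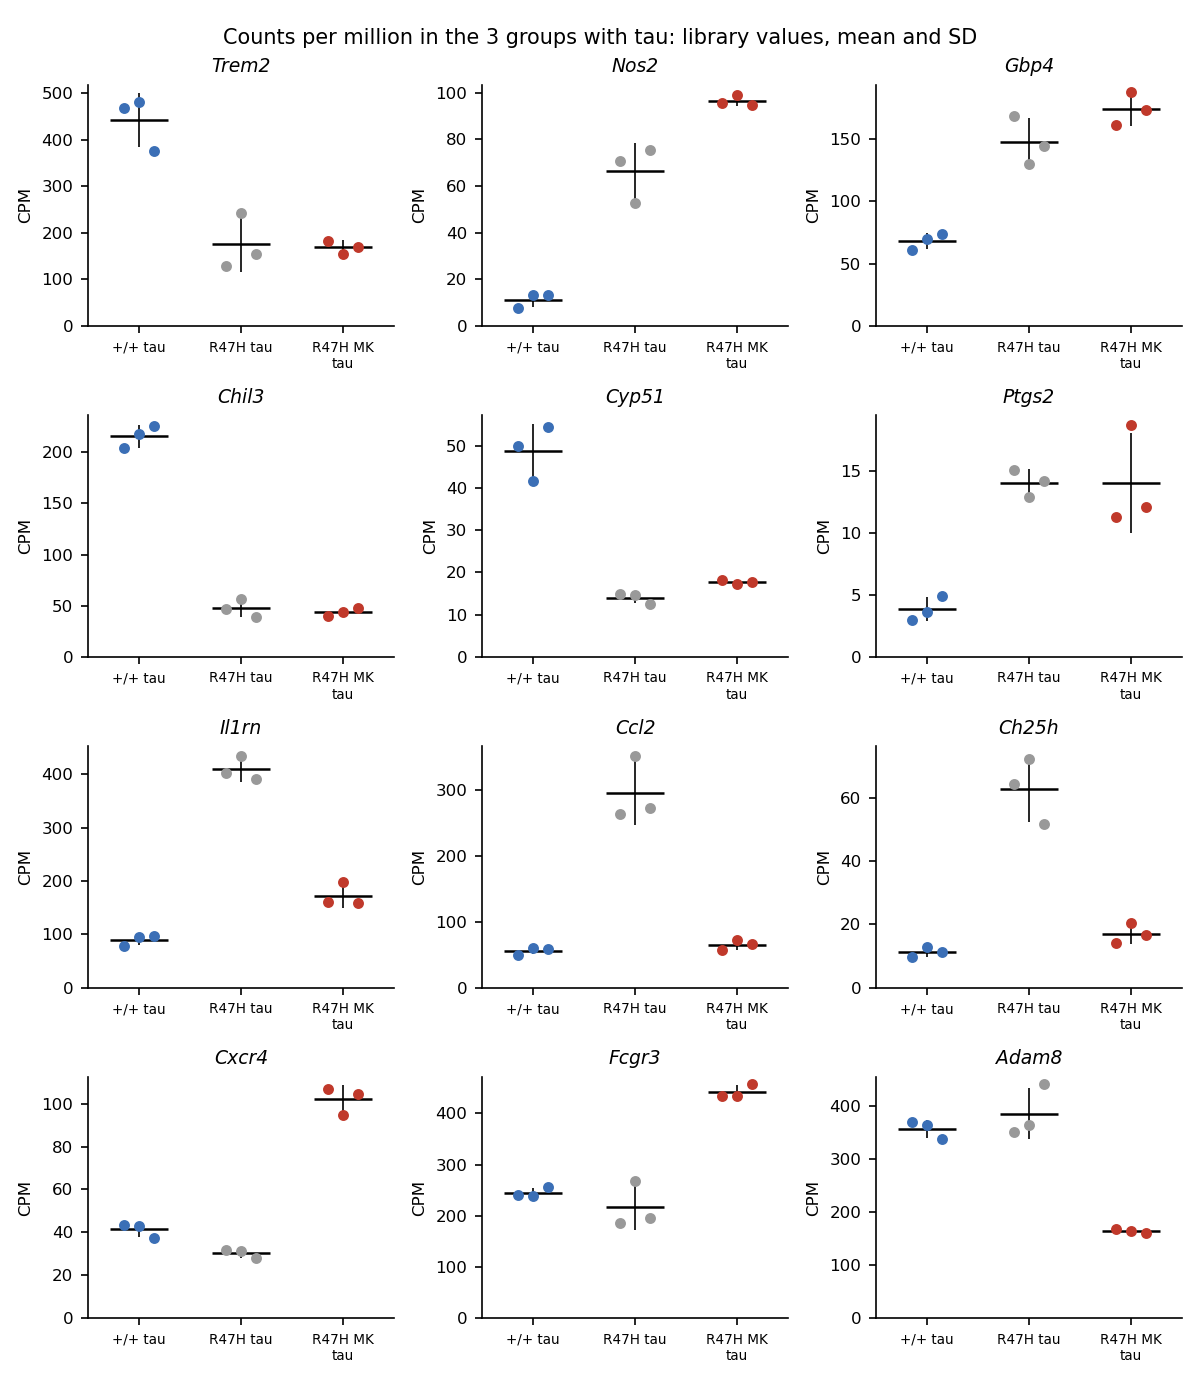
CPM of 12 genes (y axes start at 0) in each library with tau, for wild type (+/+), R47H and R47H with MK-2206 (MK); horizontal lines are means and vertical lines SDs of 3 libraries. In Nos2, Gbp4, Ptgs2 and, downward, Trem2, Chil3 and Cyp51 both R47H groups stand apart from wild type, in Il1rn, Ccl2 and Ch25h the inhibited libraries lie nearer to wild type than the uninhibited ones, and in Cxcr4, Fcgr3 and Adam8 the inhibited libraries stand apart from both other groups.

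Nos2, the inducible nitric oxide synthase of activated macrophages, had the largest rise among the genes named by size of change. It lies on chromosome 11 from 78920787 to 78960254 (plus strand, GRCm38). Wild-type libraries held 7.65, 13.3 and 13.2 CPM and inhibited R47H libraries 95.7, 98.9 and 94.5 CPM, a log2 change of 3.08 (SE 0.398, adjusted p = 0.0002), or 8.48-fold. The lowest inhibited library was far above the highest wild-type library, although ranges apart were a condition for naming a gene by size of change. Uninhibited R47H cells held 70.7, 52.5 and 75.4 CPM, and the rise of 0.54 from these to inhibited cells was not called (95% interval -0.23 to 1.31, adjusted p = 0.516). Ptgs2, the inducible cyclooxygenase, rose by 1.86 (3.01, 3.66 and 4.94 CPM against 11.3, 18.8 and 12.1 CPM, adjusted p = 0.00325), while Ptgs1, the constitutive form, fell by 0.91 (adjusted p = 4.02e-05) and Alox5, the first enzyme of leukotriene synthesis, fell by 1.22 (adjusted p = 0.000759). Kynu, an enzyme of tryptophan breakdown, and Arg2, a mitochondrial arginase, rose by 1.22 and 1.29 (adjusted p = 0.000146 and 0.000455). Of the 26 tested genes of nitric oxide, prostaglandin and oxysterol synthesis, 5 rose and 4 fell (10 and 7 without the shifted libraries).

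Cytokine genes were higher in part. Of 19 tested inflammatory cytokines, 8 rose and 0 fell (12 and 2 without the shifted libraries, median 0.63), and of 20 chemokines 7 rose and 0 fell (13 and 2, median 0.76). Il1b, a pyrogenic cytokine released by inflammasomes, held 27.3, 29.4 and 40.7 CPM in wild type and 70.9, 94.2 and 97.4 CPM in inhibited R47H cells (1.43, SE 0.323, adjusted p = 0.0121). Ccl5, a T cell chemokine and the most abundant of this list, held 1161, 1348 and 1321 CPM against 3696, 3677 and 3501 CPM (1.51, SE 0.376, adjusted p = 0.0216). Neither gene overlapped between the groups. The Ccl5 call was lost with any of the 6 libraries left out (log2 changes 1.44 to 1.55, adjusted p up to 0.107) and that of Il1b with wild-type replicate 1 or 2 left out (log2 changes of 1.32 and 1.36, adjusted p = 0.0753 and 0.0624). Tnfsf10 (TRAIL), an inducer of apoptosis, and Il15, a growth factor of natural killer cells, rose by 1.27 and 0.95 (adjusted p = 0.00265 and 0.000877). Il15ra, the receptor that presents it, rose by 0.98 (adjusted p = 0.00219).

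The CXCR3 ligands Cxcl10 and Cxcl11 were higher than in wild type and lower than in R47H cells without the inhibitor. Cxcl10 held 138, 169 and 178 CPM in wild type, 413, 482 and 445 CPM in inhibited and 665, 731 and 586 CPM in uninhibited R47H cells. Its rise over wild type was 1.47 (SE 0.306, adjusted p = 0.00681), and its difference between the R47H groups was not called (-0.56, 95% interval -1.20 to 0.07). Cxcl11 held 1.24, 1.48 and 1.65 CPM, 7.78, 11.3 and 7.86 CPM and 23.7, 33.4 and 21.7 CPM in the same order. It rose by 2.62 over wild type (adjusted p = 0.00024), from 84 to 462 counts over 3 libraries, and fell by 1.55 from uninhibited to inhibited R47H cells (adjusted p = 0.0105). That last call was lost with uninhibited replicate 2 or inhibited replicate 1 or 3 left out (adjusted p up to 0.0789). The 3 groups did not overlap in either gene.

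Il1rn, the antagonist of the IL-1 receptor, stood between the other groups in the same way. Wild-type libraries held 78.3, 94.3 and 96.9 CPM, inhibited R47H libraries 159.6, 198 and 158 CPM and uninhibited R47H libraries 403, 435 and 390.1 CPM. It was 0.94 above wild type (SE 0.143, adjusted p = 0.000759) and differed from the uninhibited cells by -1.25 on the log2 scale (adjusted p = 0.000161). Ccl2, the monocyte chemokine, held 49.4, 59.6 and 59.1 CPM in wild type and 56.5, 72.1 and 65.6 CPM in inhibited R47H cells, and those ranges overlapped. Its log2 difference of 0.21 was not called (95% interval -0.28 to 0.69, adjusted p = 0.743), while uninhibited R47H cells held 263, 351 and 273 CPM and inhibited cells were lower than these by a log2 change of -2.19 (adjusted p = 0.000129). Tnf followed the same order, at 37.9, 41.8 and 37.8 CPM in wild type, 43, 41.6 and 39.2 CPM in inhibited and 67.1, 81.8 and 72.4 CPM in uninhibited R47H cells. The difference of Tnf from wild type was 0.08 (95% interval -0.27 to 0.42, adjusted p = 0.906), and that from uninhibited cells -0.84 (adjusted p = 0.0103), a call that was lost with uninhibited replicate 2 or inhibited replicate 3 left out (adjusted p = 0.0503 and 0.0588). Il6 did not pass the count filter. Over the chemokine list 5 of 20 genes were lower in inhibited than in uninhibited R47H cells and 0 higher (9 and 1 without the shifted libraries), where 1.4% of all genes tested were called lower and 1.64% higher. The cytokine list had 2 of 19 lower and 0 higher (3 and 2 without the shifted libraries).

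Among 38 NF-kB subunits, feedback genes and targets, 11 rose and 0 fell (22 and 1 without the shifted libraries, median 0.32). GGANTTTCC was present in 8 of 35 promoters of these genes (22.9%; 29 genes matched in RefSeq) and in 1.41% of the promoters of all genes tested. Gadd45b, a stress-induced regulator of MAP kinases, rose by 1.42 (adjusted p = 7.58e-05), and the kinase Pim1 by 1.07 (adjusted p = 2e-05). Of 29 costimulation and adhesion genes, 8 rose and 1 fell (15 and 6). Cd86, which costimulates T cells, held 77.8, 90.7 and 86.8 CPM against 151, 173 and 157 CPM (0.91, adjusted p = 3.34e-05), and Cd274, the checkpoint ligand PD-L1, 379, 374 and 393 CPM against 783, 815 and 739 CPM (1.03, adjusted p = 0.00285). Both groups were separate for each gene. Cd69, which governs lymphocyte retention, rose by 1.19 (adjusted p = 0.00455), and Cd83, a marker of activated antigen-presenting cells, by 1.09 (adjusted p = 2e-05).

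Some receptors and enzymes were higher in inhibited R47H cells than in either other group. Cxcr4, the receptor for CXCL12 (chromosome 1, 128588199 to 128592293, minus strand, GRCm38), had the smallest adjusted p among the genes that rose and are named here. It held 43.6, 43.1 and 37.5 CPM in wild type, 107, 94.7 and 104 CPM in inhibited and 31.6, 31.5 and 28 CPM in uninhibited R47H cells. The inhibited libraries were the highest of the 3 groups with no overlap, by 1.30 over wild type (SE 0.0954, adjusted p = 2.59e-06) and 1.75 over uninhibited R47H cells (SE 0.0969, adjusted p = 8.14e-08). Ccrl2, an atypical receptor that binds chemerin, was high in both R47H groups. It rose by 1.48 over wild type (adjusted p = 4.83e-06) and held 104, 103 and 86.9 CPM in uninhibited against 119, 121 and 107 CPM in inhibited R47H cells. Of 31 tested chemokine and cytokine receptors, 9 rose and 0 fell against wild type (15 and 2 without the shifted libraries). Csf3r, the receptor for granulocyte colony-stimulating factor, was one of them (1.03, adjusted p = 0.00298).

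Of 6 tested Fc receptor genes, which bind the constant part of antibodies, 3 rose and 0 fell against wild type (5 and 0 without the shifted libraries). Fcgr3, an activating receptor, held 241, 239 and 256 CPM in wild type, 435, 434 and 457 CPM in inhibited and 186, 268 and 196 CPM in uninhibited R47H cells. It was 0.85 above wild type (adjusted p = 0.00227) and 1.03 above uninhibited R47H cells (adjusted p = 0.0011). Fcgr2b, the inhibitory receptor, held 369.5, 369.6 and 365 CPM, 618, 596 and 605 CPM and 389, 369.7 and 393 CPM in the same order. Inhibited cells were again the highest with no overlap, by 0.72 over wild type (adjusted p = 3.28e-05) and 0.66 over uninhibited cells (adjusted p = 0.000165).

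Entpd1 (CD39), which breaks down extracellular ATP, rose from 62.3, 55.7 and 53.7 CPM in wild type to 111, 107 and 106 CPM (0.92, adjusted p = 0.000488), with 54.5, 41.1 and 51.1 CPM in uninhibited R47H cells (log2 difference 1.14, adjusted p = 0.000165). Gpr34, a lysophosphatidylserine receptor of microglia, was scarce and followed the same order, 3.06, 3 and 3.18 CPM against 5.93, 7.06 and 7.86 CPM and, in uninhibited cells, 3.65, 3.27 and 1.77 CPM (log2 change over wild type 1.17, adjusted p = 0.00614). P2ry13, a nucleotide receptor, rose by 0.72 (adjusted p = 0.000924). P2ry12, its homeostatic relative, did not pass the test (0.34, 95% interval 0.03 to 0.65, adjusted p = 0.214) but was called without the shifted libraries (0.34, adjusted p = 0.0332), and Tmem119 was close to absent in every library (1.39, 1.68 and 1.36 CPM in wild type and 0.773, 2.48 and 1.47 CPM in inhibited R47H cells). Over the 38 tested homeostatic microglia genes, 3 rose and 5 fell (11 and 11 without the shifted libraries, median 0.02). For comparison, 4% of all genes tested rose and 3.07% fell (14.2% and 13.2%). Rhob, a small GTPase, and Gas6, a ligand of the phagocytic receptors Axl and Mertk, fell by 0.81 and 0.50 (adjusted p = 0.000485 and 0.00425).

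Of 40 tested genes of disease-associated microglia, 7 rose and 2 fell (20 and 7 without the shifted libraries, median 0.19). Part of this program is known to depend on TREM2. Cst7, a cysteine protease inhibitor, and Clec7a (Dectin-1) rose, by 1.32 (adjusted p = 0.00264) and 0.75 (adjusted p = 0.00227). Lpl, lipoprotein lipase, fell, from 2156, 1996 and 2401 CPM in wild type to 929, 1008 and 905 CPM (-1.21, SE 0.136, adjusted p = 5.16e-05). The inhibited libraries were below every library of both other groups, with 1528, 1384 and 1564 CPM in uninhibited R47H cells. Apoe, the lipid carrier, was at 19048, 20618 and 15381 CPM against 21462, 19508 and 21860.0 CPM, and its difference was not called (0.19, 95% interval -0.39 to 0.78, adjusted p = 0.837).

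For genes of the Akt pathway itself the count depended on the fit, as it did for all genes tested. Of 42 tested genes of the PI3K, Akt, mTORC1 and insulin pathway, 1 rose and 0 fell in the full model (median -0.02). There 4% of all genes tested rose and 3.07% fell. Without the shifted libraries 9 rose and 7 fell, where 14.2% and 13.2% of all genes did so. Akt1 and Akt2, which MK-2206 targets, had log2 differences of -0.12 and 0.08, and neither was called (adjusted p = 0.72 and 0.758). The 1 gene that rose in the full model was Pik3ip1, an inhibitor of PI3K and a FOXO target, from 6.46, 9.92 and 9.03 CPM to 16.2, 19 and 18.5 CPM (1.08, SE 0.175, adjusted p = 0.00119). The lowest inhibited library was above the 8.7, 12.1 and 9.6 CPM of uninhibited R47H cells.

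FOXO factors are held back by Akt. Of 47 tested FOXO target genes, 7 rose and 3 fell against wild type (16 and 5 without the shifted libraries, median 0.13). Cited2, a transcriptional coregulator, rose from 169, 166 and 152 CPM to 296, 292 and 276 CPM (0.83, adjusted p = 2e-05), and Ccng2, an atypical cyclin, by 0.62 (adjusted p = 0.000671). Both were also higher than in uninhibited R47H cells (0.46 and 0.50, adjusted p = 0.00618 and 0.00826), although both of these calls ended without a count filter (adjusted p = 0.118 and 0.111) and with the R47H groups fitted alone (adjusted p = 0.0589 and 0.0745). Between the R47H groups 6 FOXO targets were higher in the inhibited cells and 0 lower, where 1.64% of all genes tested were called higher. Without the shifted libraries 18 were higher and 2 lower, where 6.28% of all genes were called higher. Sesn1, a stress-induced inhibitor of mTORC1, fell by 0.81 from wild type (adjusted p = 0.000759). Irs2, the insulin receptor substrate induced by FOXO, was not called against wild type (11.4, 9.92 and 9.37 CPM against 12.6, 12 and 10.03 CPM, log2 difference 0.17, 95% interval -0.49 to 0.84), and uninhibited R47H cells held 5.54, 3.39 and 7.77 CPM. Foxo1 and Foxo3 themselves overlapped with wild type and were not called, with 80.5, 78.4 and 75.9 CPM of Foxo3 in inhibited R47H cells against 80.5, 78.5 and 72.7 CPM. TGTTTAC, the FOXO core motif, was found in 5 of 42 promoters of the list (11.9%; 36 genes matched) and in 2.61% of promoters of all genes tested.

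Many genes for enzymes of cholesterol synthesis were lower in inhibited R47H cells than in wild type. SREBP2 drives these enzymes when sterols are low. Among 26 tested genes for making cholesterol or taking it up, 12 fell and 0 rose, and without the shifted libraries 21 fell and 2 rose, with a median log2 change of -0.60. Cyp51, the lanosterol demethylase (chromosome 5, 4081145 to 4104746, minus strand, GRCm38), held 49.9, 41.7 and 54.5 CPM in wild type and 18.3, 17.4 and 17.8 CPM in inhibited R47H cells (-1.45, SE 0.126, adjusted p = 6.58e-06). Sqle, squalene epoxidase, held 28.1, 20.7 and 28 CPM against 7.16, 8.97 and 8.09 CPM (-1.66, adjusted p = 1.61e-05). The groups were apart in both genes, and uninhibited R47H cells lay with the inhibited ones (14.9, 14.8 and 12.5 CPM of Cyp51). Idi1, an enzyme of isoprenoid synthesis, Stard4, a sterol carrier, and Insig1, the sterol-sensing retainer of SREBP, fell by 1.25, 1.01 and 0.52 (adjusted p = 0.00329, 0.000455 and 0.00115). The median of the list was -0.86 in uninhibited R47H cells against the same wild-type libraries. Between the R47H groups 1 gene of the list was higher in inhibited cells and 0 lower (6 and 1 without the shifted libraries). The sterol regulatory element TCACCCCAC was found in 1 of 22 promoters of the list (4.55%; 19 genes matched) and in 0.575% of promoters of all genes tested.

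Genes of fatty acid synthesis and desaturation were lower too. Of 19 tested, 3 fell and 0 rose (8 and 0 without the shifted libraries), the median log2 change was -0.36 and 1 of the 19 had a positive value, with the desaturase Scd1 down by 1.68 (adjusted p = 0.000659). Lipa, the lysosomal acid lipase, fell by 0.62 (adjusted p = 0.00425). Mgll, which breaks down monoglycerides and the endocannabinoid 2-arachidonoylglycerol, held 56.6, 52.2 and 48.8 CPM in wild type, 130.2, 117 and 101 CPM in inhibited and 55.7, 51.1 and 53.9 CPM in uninhibited R47H cells. Of these 3 groups the inhibited libraries alone were high, by 1.14 over wild type (adjusted p = 0.000968) and 1.11 over uninhibited cells (adjusted p = 0.00276). Cyp27a1, which makes 27-hydroxycholesterol, and Pltp, a phospholipid transfer protein, had the same order, with 0.66 and 0.70 over wild type (adjusted p = 0.00257 and 0.00498). Cyp27a1 was also above uninhibited cells by 0.90 (adjusted p = 0.000468). Ch25h, which makes the antiviral oxysterol 25-hydroxycholesterol, held 9.8, 12.8 and 11.4 CPM, 14.2, 20.4 and 16.6 CPM and 64.4, 72.4 and 51.7 CPM in wild type, inhibited and uninhibited R47H cells. Its difference from wild type was not called (0.59, adjusted p = 0.169; without the shifted libraries adjusted p = 0.00919), and inhibited cells were below uninhibited cells by a log2 change of -1.88 (adjusted p = 0.000265).

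**Figure D3:**
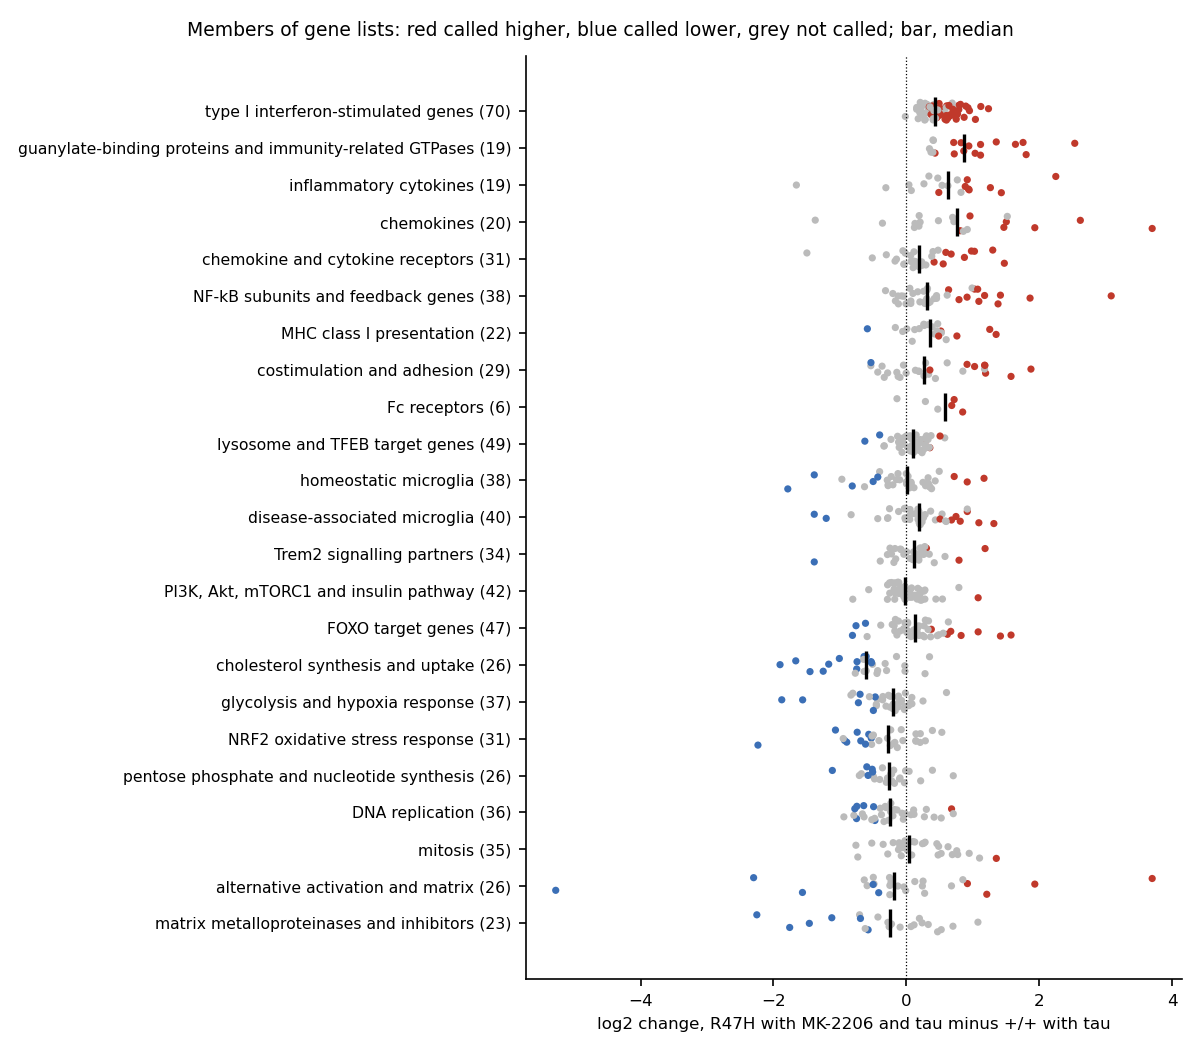
Log2 change of inhibited R47H cells against wild type, both with tau (x axis), for each tested member of 23 gene lists (rows, number of members in brackets); red and blue points were called higher and lower, grey points were not called, and black bars are medians. Interferon-stimulated genes and GTPases lie to the right of 0 (medians 0.43 and 0.86) and cholesterol genes to the left (median -0.60).

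Genes of the antioxidant response, which the factor NRF2 induces, were lower. Of 31 tested, 10 fell and 0 rose (18 and 5 without the shifted libraries, median -0.28). Nqo1, a quinone reductase and standard NRF2 target, held 8.27, 8.55 and 10.3 CPM in wild type and 1.29, 1.91 and 2.58 CPM in inhibited R47H cells (-2.23, SE 0.336, adjusted p = 0.000713). Gsta3, a glutathione transferase, held 5.21, 4.94 and 6.87 CPM against 0.67, 0.699 and 0.997 CPM (-2.84, adjusted p = 0.00373). Both were low in uninhibited R47H cells as well (1.83, 2.87 and 3.09 CPM of Nqo1). Gclm and Gclc, the subunits of the first enzyme of glutathione synthesis, fell by 0.93 and 1.07 (adjusted p = 0.000419 and 0.00153), and Txnrd1, thioredoxin reductase, by 0.74 (adjusted p = 0.00693). Srxn1, which reactivates peroxiredoxins, fell by 0.56 (adjusted p = 0.00588) and was also below uninhibited R47H cells (-0.75, adjusted p = 0.00169).

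Of 37 tested genes of glycolysis and the hypoxia response, 6 fell and 0 rose (17 and 2 without the shifted libraries, median -0.20). Pkm, pyruvate kinase, held 1517, 1585 and 1386 CPM against 859, 901 and 962 CPM (-0.72, SE 0.117, adjusted p = 0.00119), and P4ha2, a collagen prolyl hydroxylase, 5.55, 5.04 and 5.4 CPM against 1.65, 1.59 and 2.17 CPM (-1.56, adjusted p = 5.12e-05). Neither overlapped between the groups. Of 26 genes of the pentose phosphate pathway and nucleotide synthesis, 5 fell and 0 rose (14 and 2, median -0.26), with Impdh1, which makes guanine nucleotides, down by 1.11 (adjusted p = 0.000556). Mthfd1l, a mitochondrial enzyme of one-carbon metabolism, held 14.2, 11.6 and 11.8 CPM in wild type and 4.59, 3.75 and 5.39 CPM in inhibited R47H cells (-1.45, adjusted p = 3.28e-05). Tfrc, the transferrin receptor, fell by 0.90 (adjusted p = 0.000615). Uninhibited R47H cells lay between the other groups in Mthfd1l (8.64, 6.2 and 7.6 CPM).

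Cell cycle genes were called in both directions. Of 36 tested DNA replication genes, 6 fell and 1 rose (11 and 4 without the shifted libraries, median -0.25), while the same list had a median of 0.35 in uninhibited R47H cells against the same wild-type libraries. Between the R47H groups 11 of the 36 were lower in inhibited cells and 0 higher (16 and 0). That comparison called 1.4% of all genes tested lower and 1.64% higher (5.73% and 6.28%). Mcm5, a subunit of the replicative helicase, held 11.9, 15 and 10.9 CPM in wild type, 7.27, 7.57 and 7.62 CPM in inhibited and 19.6, 20.7 and 20.1 CPM in uninhibited R47H cells. Inhibited cells were the lowest, by a log2 change of -0.75 from wild type (adjusted p = 0.0121) and -1.43 from uninhibited cells (adjusted p = 0.000177). Its call against wild type was lost with wild-type replicate 2 or inhibited replicate 1 left out (log2 changes of -0.60 and -0.73, adjusted p = 0.0763 and 0.0542). Of 35 mitosis genes, 1 rose and 0 fell (4 and 0, median 0.04), and the proliferation marker Mki67 was at 16.2, 14.8 and 22.9 CPM against 16.9, 18.8 and 17.1 CPM (-0.03, 95% interval -0.50 to 0.44). The 1 mitosis gene that rose was Tpx2, a spindle assembly factor (11.6, 12.5 and 12.3 CPM against 30.1, 31.9 and 31 CPM, 1.36, adjusted p = 2.17e-05). Between the R47H groups 2 of the 35 mitosis genes were lower in inhibited cells and 0 higher (7 and 1 without the shifted libraries). Of 34 tested G1 cyclins, CDK inhibitors and p53 targets, 3 rose and 3 fell against wild type (10 and 6). For comparison, 4% of all genes tested rose and 3.07% fell (14.2% and 13.2%). Ccnd2, a G1 cyclin, rose by 1.33 (adjusted p = 0.00597).

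Of 34 early response genes, which growth factor and stress signals induce within minutes, 4 rose and 3 fell against wild type (10 and 7 without the shifted libraries). Fos, a subunit of the AP-1 factor, held 24.6, 21.7 and 22.8 CPM in wild type, 10.7, 13.6 and 12.7 CPM in inhibited and 25.2, 29 and 28.3 CPM in uninhibited R47H cells. It was lowest in the inhibited cells with no overlap, by a log2 change of -0.90 from wild type (SE 0.118, adjusted p = 0.000222) and -1.16 from uninhibited cells (adjusted p = 7.09e-05). Myc, a growth-promoting transcription factor, fell by 1.00 (adjusted p = 0.00456), with 4.35, 3.51 and 3.35 CPM in wild type and 1.6, 1.97 and 2.05 CPM in inhibited R47H cells. In the early response list 8 genes were lower and 0 higher in inhibited than in uninhibited R47H cells (15 and 0 without the shifted libraries). That comparison called 1.4% of all genes tested lower and 1.64% higher (5.73% and 6.28% without the shifted libraries).

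Some genes of the matrix, its breakdown and alternative activation were among the strongest falls. Fn1, fibronectin, held 1353, 1208 and 1329 CPM in wild type and 438, 455 and 423 CPM in inhibited R47H cells (-1.56, SE 0.291, adjusted p = 0.00327). Chil3, a chitinase-like marker of alternative activation, held 204, 218 and 226 CPM against 39.8, 44.1 and 47.7 CPM (-2.30, SE 0.198, adjusted p = 6.58e-06), and Mmp9, the gelatinase, 180.5, 158 and 193 CPM against 35.5, 37.4 and 38.9 CPM (-2.25, adjusted p = 6.72e-06). The groups were far apart in all 3 genes, although ranges apart were a condition for naming a gene by size of change. Uninhibited R47H cells held 19.9, 20.2 and 22.9 CPM of Mmp9, the lowest of the 3 groups. Vsig4, a complement receptor of resident macrophages, and F13a1, coagulation factor XIII, were nearly absent in inhibited R47H cells, with 9 and 5 counts over the 3 libraries against 262 and 230 in wild type (adjusted p = 4.83e-06 and 2.27e-06). Of 23 matrix metalloproteinases and inhibitors, 6 fell and 0 rose (9 and 3 without the shifted libraries), and of 26 alternative activation and matrix genes 5 fell and 4 rose (11 and 6).

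Adam8, a membrane protease of leukocytes, and Plau, the urokinase, were lower in inhibited R47H cells than in both other groups. Adam8 held 370.0, 364 and 338 CPM in wild type, 169, 164 and 160.3 CPM in inhibited and 351, 364 and 441 CPM in uninhibited R47H cells. It fell by 1.12 from wild type (adjusted p = 0.000671) and by 1.23 from uninhibited cells (adjusted p = 0.000603). Plau fell by 0.69 and 0.77 in these comparisons (adjusted p = 0.00329 and 0.00357), and C5ar1, the receptor for the complement fragment C5a, by 0.65 and 0.68 (adjusted p = 0.000343 and 0.000491). Slc13a3, a carrier of dicarboxylates, held 62.7, 76.9 and 70.6 CPM, 26.4, 24.2 and 26.3 CPM and 58.1, 57.9 and 61.8 CPM in wild type, inhibited and uninhibited R47H cells (log2 change of -1.45 from wild type to inhibited cells, adjusted p = 0.00109). Eps8l1, an actin regulator, was the reverse, at 3.4, 3.61 and 3.18 CPM, 12.7, 10.5 and 10.6 CPM and 5.66, 5.91 and 4.8 CPM (1.73 and 1.05, adjusted p = 2e-05 and 0.00275). In each of these genes the inhibited libraries overlapped with neither other group.

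Among receptors that take up lipids, lipoproteins and tau, 1 of 29 rose and 4 fell (5 and 11 without the shifted libraries). For comparison with the lists of this paragraph, 4% of all genes tested rose and 3.07% fell (14.2% and 13.2%). Marco, a scavenger receptor of macrophages, held 1835, 1980.0 and 1720.2 CPM in wild type and 790.3, 699 and 747 CPM in inhibited R47H cells (-1.31, adjusted p = 0.00425). Cd36, a fatty acid and lipoprotein receptor, fell by 0.91 (adjusted p = 0.00157). Of 20 complement genes 1 rose and 3 fell (3 and 8). Of 49 lysosomal and TFEB target genes 3 rose and 2 fell (22 and 4, median 0.11), and of 35 Toll-like receptors and nucleic acid sensors 4 rose and 0 fell (18 and 3). Casp4, which senses intracellular lipopolysaccharide, was one of these 4 (1.04, adjusted p = 0.00224).

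**Figure D4:**
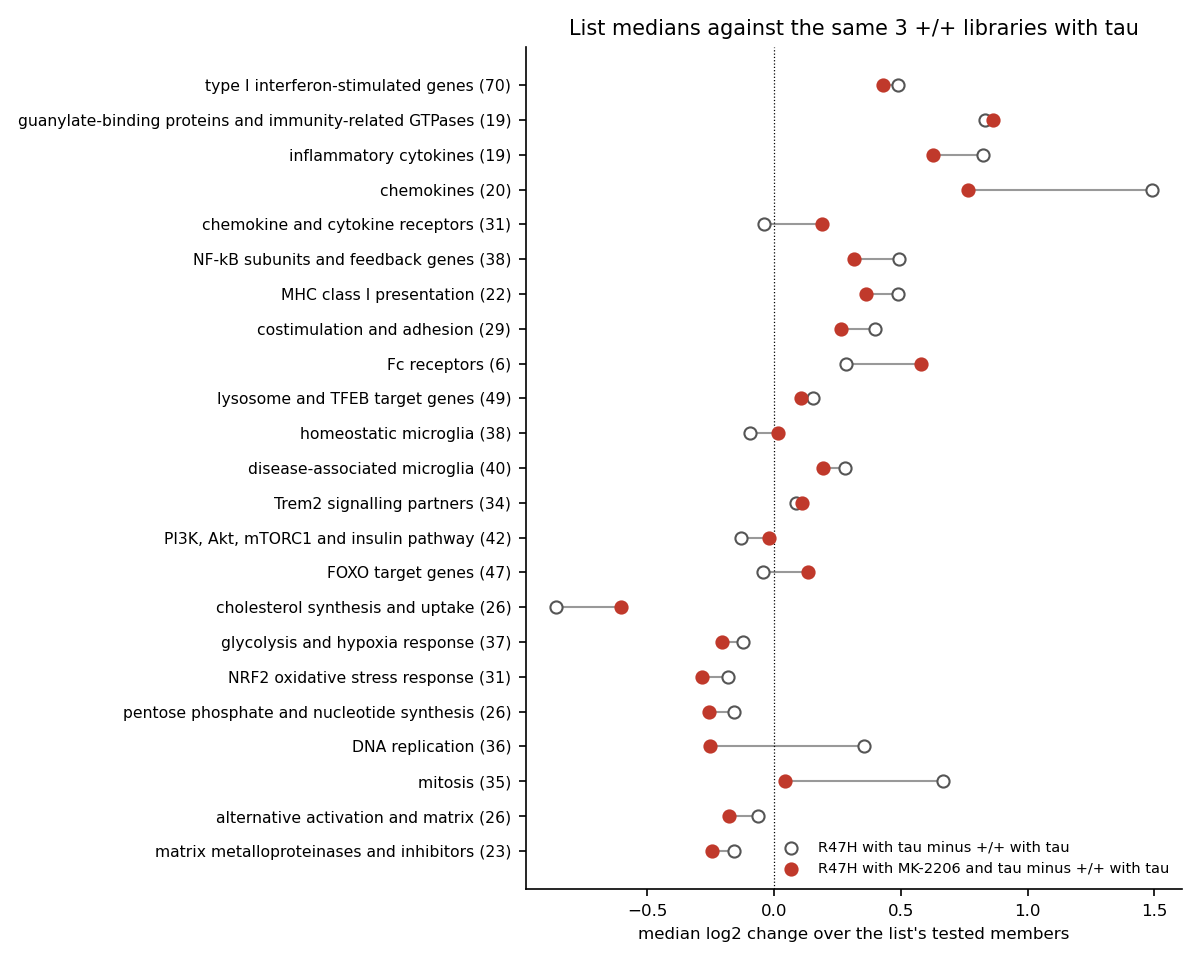
Median log2 change over the tested members of 23 gene lists (rows), for R47H cells with tau (open circles) and inhibited R47H cells with tau (red), each against the same 3 wild-type libraries with tau. Both circles lie close together for interferon-stimulated genes (0.49 and 0.43) and GTPases (0.83 and 0.86) and apart for chemokines (1.49 and 0.76), DNA replication (0.35 and -0.25) and mitosis (0.67 and 0.04).

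Both sets of medians share the wild-type libraries, so a difference between them is tested by the direct comparison of the R47H groups. That comparison called 403 genes (3.04%; 1620 or 12% without the shifted libraries, with 6.28% higher and 5.73% lower). It called between 150 and 245 genes with any 1 of its 6 libraries left out. The uninhibited cells differed from wild type in 1260 genes (9.5%, with 5.25% higher and 4.24% lower; 3141 or 23.3% without the shifted libraries, 1 of which belongs to that group), and in 629, 769 and 780 without wild-type replicates 1 and 2 and without uninhibited replicate 2.

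Markers of other cell types were measured in the same libraries, since cultures from newborn brain can hold other glia. Markers of microglia and macrophages were present at different levels, with Csf1r between 2524 and 2705 CPM and C1qa between 1894 and 2687 CPM in the 6 libraries, Cx3cr1 between 31.4 and 39.4 CPM, P2ry12 between 26.3 and 39.3 CPM, and Tmem119 near absent. The summed level of 12 astrocyte markers was 333.2 to 350.8 CPM in wild type and 238.9 to 256.1 CPM in inhibited R47H cells. Most of that sum was Glul, glutamine synthetase, which fell by 0.73 (adjusted p = 5.85e-05) and which macrophages also express, while Gjb6 was at 0 counts in all 6 libraries. Aldoc, listed among both astrocyte markers and glycolysis genes, fell by 1.87 (adjusted p = 6.58e-06). Of the 8 astrocyte markers tested, 2 fell and 0 rose (3 and 0 without the shifted libraries), and 3 had positive values, among them Aldh1l1 at 74.6, 73.6 and 65.4 CPM against 92.8, 79.4 and 85.3 CPM (0.27, adjusted p = 0.339). The sums were 285.5 to 310.7 against 285.9 to 290.03 CPM for 12 oligodendrocyte lineage markers and 3.00 to 3.86 against 2.99 to 3.58 CPM for 12 neuron markers. Cnp made up most of the oligodendrocyte sum. Of those 12 markers 0 were called (5 lower and 0 higher without the shifted libraries, where 13.2% and 14.2% of all genes were). In 8 of them inhibited cells were lower with no overlap between the groups, which held for 18.8% of all genes tested. The median was -0.49, and 3 had positive values. Of 13 fibroblast and vascular markers, whose sum was 42.4 to 48.3 against 100.5 to 107.3 CPM, nearly all came from Kdr (43.3, 38.8 and 41.3 CPM against 96.4, 102 and 97.6 CPM, adjusted p = 0.00928), and Cldn5, Rgs5 and Lum were at 0 counts. The 16 markers of border macrophages, monocytes and granulocytes summed to 1189 to 1245 against 1239 to 1368 CPM. Their part in the gene differences above was not tested, and in bulk libraries fewer cells of a type and less RNA per cell cannot be told apart.

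The difference between inhibited R47H and wild-type cells was not the same without tau. In the test of that interaction 144 of 13267 genes were called (1.09%), 35 with a larger value with tau (0.264%) and 109 with a smaller one (0.822%), and 670 without the shifted libraries (4.96%, with 1.65% larger and 3.31% smaller), of which 1 is a wild-type library without tau. Without that library alone, wild-type replicate 3, 289 genes were called. Interferon-stimulated genes were prominent here, where 39 of 70 were called smaller with tau and 0 larger (69 and 0), with a median interaction of -1.01. Irf7 held 105, 125 and 122 CPM in wild type and 886, 967 and 982 CPM in inhibited R47H cells without tau, and 2068, 2300.0 and 1784 CPM against 3524, 3427 and 3439 CPM with tau. The R47H libraries were higher in both settings, and the log2 difference was smaller with tau, although the difference in CPM was larger (interaction -2.26, SE 0.186, adjusted p = 7.56e-06). Rsad2 gave 62.8, 95.9 and 65.5 CPM against 414, 387 and 384 CPM without tau, and its log2 difference, not its difference in CPM, was smaller with tau as well (-1.28, adjusted p = 0.00352). Nos2 was scarce without tau, with 7 counts over 3 wild-type and 106 over 3 inhibited R47H libraries, and its interaction was not called (-0.78, adjusted p = 0.737).

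**Figure D5:**
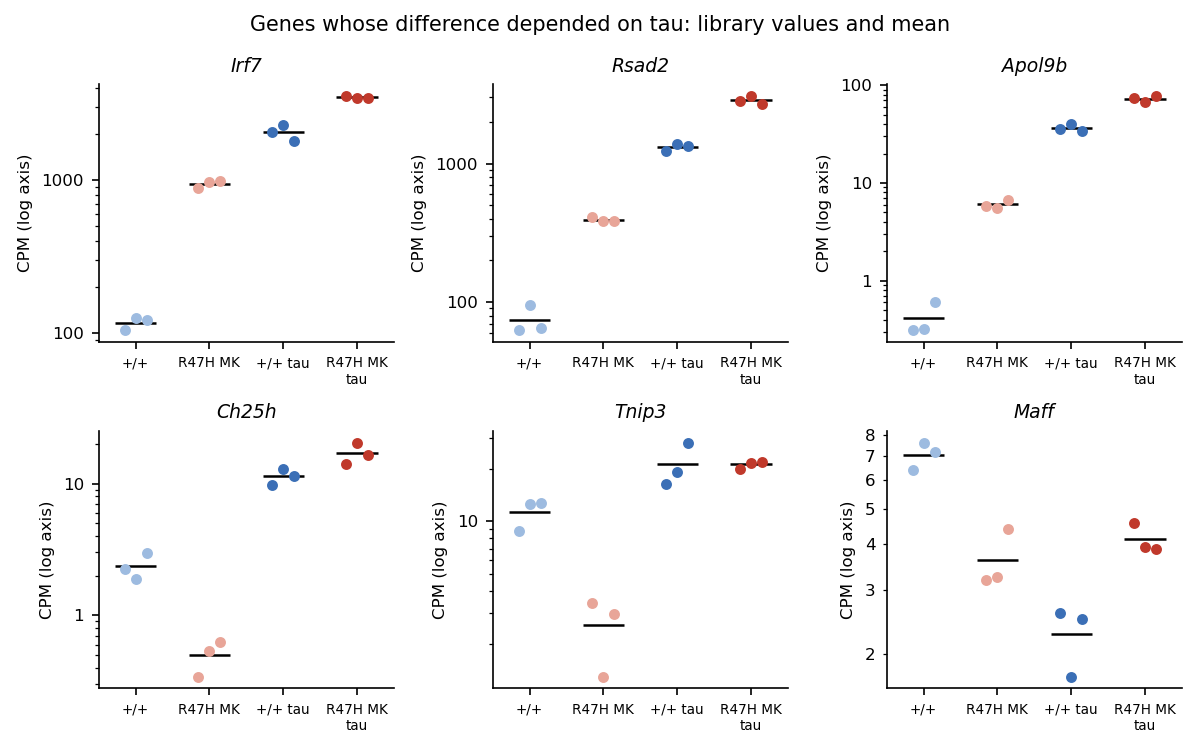
CPM on log axes in each library of wild type (+/+) and inhibited R47H cells (R47H MK), without and with tau, for 6 genes whose difference depended on tau; horizontal lines are means of 3 libraries. In Irf7, Rsad2 and Apol9b the gap between the groups on the log axis is wider without tau, and in Ch25h, Tnip3 and Maff the inhibited R47H libraries lie below wild type without tau, while with tau they lie above it in Ch25h and Maff and overlap with it in Tnip3.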

How the data were processed

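Bulk RNA sequencing counts of 18 libraries of primary mouse microglia were used, with 6 in the comparison described. Per the labels' protocols, RNA was extracted with a Zymo micro kit and libraries were made with a NEBNext Ultra kit and sequenced as paired reads. STAR, featureCounts, DESeq2, GRCm38 and mm10 are named in the submitters' processing notes, with no versions, settings or strand. The authors deposited raw counts per gene, with no normalization, for 54532 genes. They also deposited coordinates and a length in base pairs for each gene (other columns, not tested). Symbols turned into dates were restored for 27 rows, and 103 rows had a repeated symbol. Every column of the table was matched to a sample by the number in its description.

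The model was edgeR's quasi-likelihood fit (version 4.0.16, under R 4.3.3 with limma 3.58.1). It had 1 term for each of the 6 groups, so that 12 residual degrees of freedom came from the 18 libraries, after TMM scaling and a filterByExpr filter on low counts. Every contrast had a two-sided F-test, and p-values were adjusted by Benjamini-Hochberg across the 13267 genes tested (13498 without the length-shifted libraries), with a threshold of 0.05. SEs are the log2 change over the root of F, and intervals cover 95%. With 3 libraries in each group, the smallest p of an exact permutation test is 0.1, and no such test was run. Chi-square per gene between replicates was at least 3.53, so no pair of libraries looked like 1 library counted again, and the spread exceeded the counting error that depth sets. The model was tested on simulated data.

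The members, the 45 gene lists (1265 entries, 1165 tested, 2 symbols absent from the table), the tests and the alternatives, including the fit without the length-shifted libraries, were chosen with earlier results of these data known. Named genes are Trem2, up to 20 genes with the largest change in each direction (called, mean log2 CPM of at least 1, ranges apart), from each list at most 8 genes ranked by p, up to 5 interaction genes in each direction and a few fixed genes, with clone names, Rik symbols and pseudogenes left out. A few genes that it selects are not reported here. Other settings tried were DESeq2 1.42.0, RLE scaling, keeping every gene, the compared groups alone, a replicate block, the fit without the length-shifted libraries and each library left out. Promoters came from RefSeq by symbol, and all motifs were searched on both strands.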

Additional observations from a re-analysis of the deposited data

Results flagged for a closer look

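In 144 genes the difference between inhibited R47H cells and wild-type cells changed with tau, by a test of the interaction in edgeR's quasi-likelihood model with Benjamini-Hochberg adjustment over 13267 genes. They are listed because the same contrast gave another value in cells with tau than in cells without it. The 10 genes below have the largest interactions in each direction among those named by the rule.

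Ch25h, which makes 25-hydroxycholesterol, had the largest interaction toward higher values with tau (2.78, SE 0.423, adjusted p = 0.00223). Without tau it held 2.23, 1.88 and 2.97 CPM in wild type and 0.342, 0.54 and 0.622 CPM in inhibited R47H cells, and with tau the inhibited libraries lay above the wild-type ones. The adenosine receptor gene Adora2a held 0.883, 1.79 and 1.96 CPM in wild type and 0.457, 0.486 and 0.415 CPM in inhibited R47H cells without tau, and 4.64, 5.14 and 4.66 CPM against 7.94, 9.6 and 6.51 CPM with tau (interaction 2.48, adjusted p = 0.00572). In both genes the order of the groups was opposite without and with tau, and no group overlapped with the other. Both genes were scarce in inhibited R47H cells without tau, so their interactions rest on few counts there. Tnip3, an inhibitor of NF-kB signalling, held 8.78, 12.6 and 12.8 CPM against 3.42, 1.3 and 2.95 CPM without tau and overlapped with tau (2.15, adjusted p = 0.00669). The gene of the filament protein nestin, Nes, behaved likewise, with 45.5, 29.5 and 31.5 CPM against 8.96, 14.2 and 7.88 CPM without tau and 16.7, 17.4 and 19 CPM against 20.8, 18.6 and 15.6 CPM with tau (1.83, adjusted p = 0.00358). Maff, a small MAF transcription factor, fell with tau in wild type and not in inhibited R47H cells, from 6.39, 7.61 and 7.15 CPM to 2.58, 1.73 and 2.5 CPM in the first and from 3.2, 3.24 and 4.41 CPM to 4.59, 3.94 and 3.87 CPM in the second (1.83, adjusted p = 0.00352).

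The genes named below, with the largest interactions toward a smaller difference under tau, were scarce in wild-type cells without tau. Their interactions rest on few counts there, unlike those of Irf7 and Rsad2 given above. Apol9b, an interferon-induced apolipoprotein, had 22 counts over the 3 wild-type libraries without tau and 336 over the 3 inhibited R47H libraries, and 35.7, 40 and 34 CPM against 73.5, 66.8 and 77.5 CPM with tau (-2.92, SE 0.34, adjusted p = 0.000227). Its close copy Apol9a, with which it may share reads, had 4 and 139 counts without tau (-3.91, adjusted p = 0.0216, and not called with wild type without tau replicate 2 or inhibited R47H without tau replicate 3 left out). Csprs had 9 and 148 counts (-3.25, adjusted p = 0.00161), and the GTPase gene Gbp11 8 and 207 counts (-2.90, adjusted p = 0.0232). The prostaglandin carrier gene Slco2a1 had 0 counts in wild type and 35 in inhibited R47H cells without tau (adjusted p = 0.0308), and no fold is given for it. The call of Gbp11 was lost with each of 6 of the 12 libraries left out (adjusted p up to 0.0624), with the replicate block (adjusted p = 0.0514) and with the 4 groups fitted alone (adjusted p = 0.122). That of Slco2a1 was lost with each of 9 of the 12 (adjusted p up to 0.094) and with the groups alone (adjusted p = 0.112). Wild type without tau includes replicate 3, in which long genes were low.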

How the results depend on the processing

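The count of 938 genes between inhibited R47H and wild-type cells with tau was 944 under RLE scaling, 654 without a count filter, 1306 under DESeq2 and 792 with a replicate block. It was 3269 with the 6 libraries fitted alone, 3699 without both length-shifted libraries, and 495 to 687 with 1 library left out. The 1260 genes of uninhibited R47H against wild-type cells became 3141 without both shifted libraries and 629 to 1041 with 1 library left out. The 403 genes between the R47H groups became 236 without a count filter, 698 under DESeq2, 220 with the groups alone, 249 with the replicate block, 1620 without both shifted libraries and 150 to 245 with 1 library left out. The 144 interaction genes became 283 under DESeq2, 77 with the groups alone, 670 without both shifted libraries and 98 to 289 with 1 library left out. The cause of these moves was not tested. Under the other alternatives each count stayed within 1.5 times.

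Between the wild-type and inhibited R47H groups with tau, deviations of same-numbered libraries from their group means correlated at 0.0909, -0.074 and 0.0683. Not every library correlated best with its own number. With 3 libraries in each group these values cannot decide whether the numbers pair the samples. Of 150 log2 changes given in the text with a test, 136 were called. Of these, 8 lost the call with at least 1 library left out, 2 without a count filter, 1 with the replicate block, 4 with the groups alone, and 0 under RLE scaling, DESeq2 or without both shifted libraries. Those that lost it with a library left out are named beside their values. Of 14 not called, 2 (P2ry12 and Ch25h) were called without both shifted libraries. The difference of Trem2 between the R47H groups turned to 0.26 without both shifted libraries and spanned -0.23 to 0.26 with 1 library left out, and that of Mki67 from wild type to inhibited cells spanned -0.15 to 0.18 with 1 library left out, none of these being called. The median log2 change of all genes was -0.01 under TMM and 0.02 under RLE scaling. Depth was similar in all libraries. Some genes with few counts have the counts beside them, and others, such as Ch25h, Adora2a and Gsta3, are given in CPM alone.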
